A study of Mus musculus with 5 samples.

Results

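Mitochondria carry their own ribosome, which translates the small set of respiratory chain proteins encoded in mitochondrial DNA. Its proteins are encoded in the nucleus under the symbols Mrpl (large subunit) and Mrps (small subunit), made in the cytosol and imported. GTPases such as Mtg1 and Mtg2 attach to the maturing large subunit and act late in its assembly. Dividing cells, including proliferating thymocytes, need new mitochondrial ribosomes to keep up respiratory capacity. The genes described here are the Mrpl and Mrps genes together with Mtg1 and Mtg2, measured in whole thymus of mice that lack ZAS3, set against wild-type thymus. They numbered 78 of the 16504 genes named on the array, and 77 of them were measured by 1 probe each.

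The genes were chosen by symbol, but the choice was not blind to the measurements. Mtg1 was selected on its log2 ratio, the lowest of all named genes in these data. The pairing of spots with gene names was itself chosen from the values. It takes the deposited probe numbers and the platform annotation to run across the slide in transposed order. That order was inferred from these same values, and every gene name rests on it. Every value of the 78 genes therefore stands as a description, and the counts of calls given for them are not read as a test of the group.

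The study paired ZAS3-null with wild-type thymus on 5 two-colour Agilent arrays. ZAS3, encoded by Hivep3, is a zinc finger protein of immune signalling. The mice were littermates aged 6 to 8 weeks, of the same sex and age within a pair. No treatment, strain or deleted part of the gene is given in the sources used here. The labels say whole thymus and the design text says thymocytes; in either case RNA came from mixed cells, so a ratio cannot tell fewer cells of a type from less RNA per cell. Each array gave 1 log2 ratio per spot, and array 1 to array 5 are the 5 replicates of the only group. A positive ratio likely means a higher level in ZAS3-null thymus, going by the titles and the channel order, since the sources disagree on the dyes: the sample labels give Cy5 to the ZAS3-null RNA and the design text gives it Cy3. Hivep3 itself had 0.08 ± 0.07 (SD, n = 5) as deposited and 0.17 ± 0.09 after correction for position on the slide, which checks nothing where its probes lie outside the deleted part. No array had the dyes swapped, so dye and genotype cannot be told apart. Ratios hold no level, so the genes cannot be ranked by abundance, and the thymus label could not be checked against levels of its markers.

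Across the 78 genes the ratios spread to both sides of 0 and were small apart from a few genes. The median of the 78 mean log2 ratios was -0.11, against -0.03 over all named genes. A mean below 0 was seen for 53 genes (67.9%), against 53.7% of all named genes, and a mean above 0 for 25. The log2 ratios of the whole array rise across the slide, so the values are also given position-corrected, that is, less the median of a window of 21 by 21 spots centred on each spot. The median was then -0.04, against -0.01 over all named genes. Means below 0 then numbered 45 (57.7%), against 51.6% of all named genes, and means above 0 numbered 33. Taken on each array, the median of the 78 genes had an SD over the 5 arrays of 0.07 as deposited and 0.05 after correction. The corrected median was -0.01 without array 2, -0.07 without array 3 and -0.02 with column and row medians subtracted in place of the window.

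The sign of a gene's ratio followed the column in which its spot lay. All 25 of the 78 genes in the first 35 columns had a mean below 0 as deposited, with a median of -0.18. Of the 25 in the last 35 columns, 20 had a mean above 0, with a median of 0.25. All named genes of the same columns had medians of -0.18 and 0.20. Of these, 4381 of 5397 lay below 0 in the first columns and 4234 of 5267 above 0 in the last. In columns 36 to 70, 23 of 28 genes had a mean below 0, against 3440 of 5833 named genes. The medians there were -0.16 and -0.05, so the genes lay below the slide's trend in these columns. The correlation of the mean with the column was 0.53 over the 78 genes as deposited and 0.12 after correction, or 0.72 and 0.19 without Mtg1. It is a description, since the genes share the 5 arrays. After correction the 25 genes of the first 35 columns divided into 15 below and 10 above 0, and those of the last 35 columns into 13 and 12. The 28 genes of columns 36 to 70 divided into 17 and 11. All named genes divided into 2818 and 2579 in the first columns, 3089 and 2744 in the middle and 2600 and 2667 in the last.

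**Figure D1:**
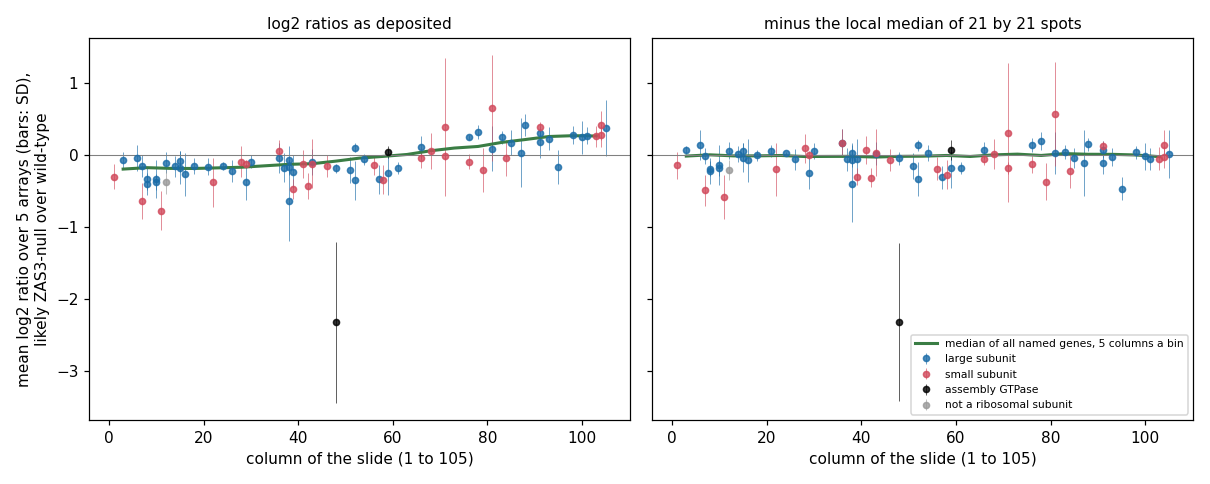
Mean log2 ratio over 5 arrays (vertical axis, bars show the SD) of each of the 78 genes against the column of its spot on the slide, as deposited on the left and after subtraction of the local median on the right, coloured by subunit. The green line is the median of all named genes in bins of 5 columns; the genes follow it upward on the left, with medians of -0.18 in the first 35 columns and 0.25 in the last 35, while Mtg1 lies at -2.32 in both.

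Calls were made with limma over all 20861 features at a Benjamini-Hochberg adjusted p of 0.05. As deposited, 11 of the 78 genes were called positive (14.1%), against 12.0% of all named genes, and 13 were called negative (16.7%), against 12.9%. After correction 0 were called positive, against 0.612% of all named genes, and 4 were called negative (5.13%), against 2.30%. The 4 were Mtg1, Mrps5, Mrps22 and Mrpl44. Mtg1 was chosen for its low ratio, so its call came with the choice. Among the subunit genes, 1 of 49 large (2.04%) and 2 of 26 small (7.69%) were called negative. After correction none of these 4 genes was called without array 1, without array 4 or without array 5. The corrected calls over all named genes also fell, from 481 to 57, 28 and 23. All 4 were called without array 2, with Mrps17 added on the positive side, when all named genes had 1152 calls. Without array 3 all but Mrps5 were called, and all named genes had 107. Without array 5 the calls as deposited numbered 4 in place of 24, and Mtg1 was not among them. Over all named genes they then numbered 734 in place of 4095. As deposited, Mrps5, Mrps22 and Mrps23 stayed called whichever array was left out. Their spots lay in columns 11, 7 and 39, where the array as a whole was low.

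The sign held on all 5 arrays for 13 positive and 23 negative genes as deposited. Over all named genes the shares were 16.7% and 20.5%, and over the 78 genes 16.7% and 29.5%. After correction 4 were positive and 15 negative on every array, which is 5.13% and 19.2%, against 11.7% and 14.5% of all named genes. The study set its own limit at 1.5-fold in 4 or more arrays. Past this limit on the positive side lay 0 of the 78 genes as deposited, against 0.406% of all named genes, and on the negative side 2, Mtg1 and Mrps5, against 0.460%. After correction 0 lay past it on the positive side, against 0.0485%, and Mtg1 alone on the negative side, against 0.194%. Mtg1 was chosen for its low ratio, so its place past the limit came with the choice in both forms of the values.

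**Figure D2:**
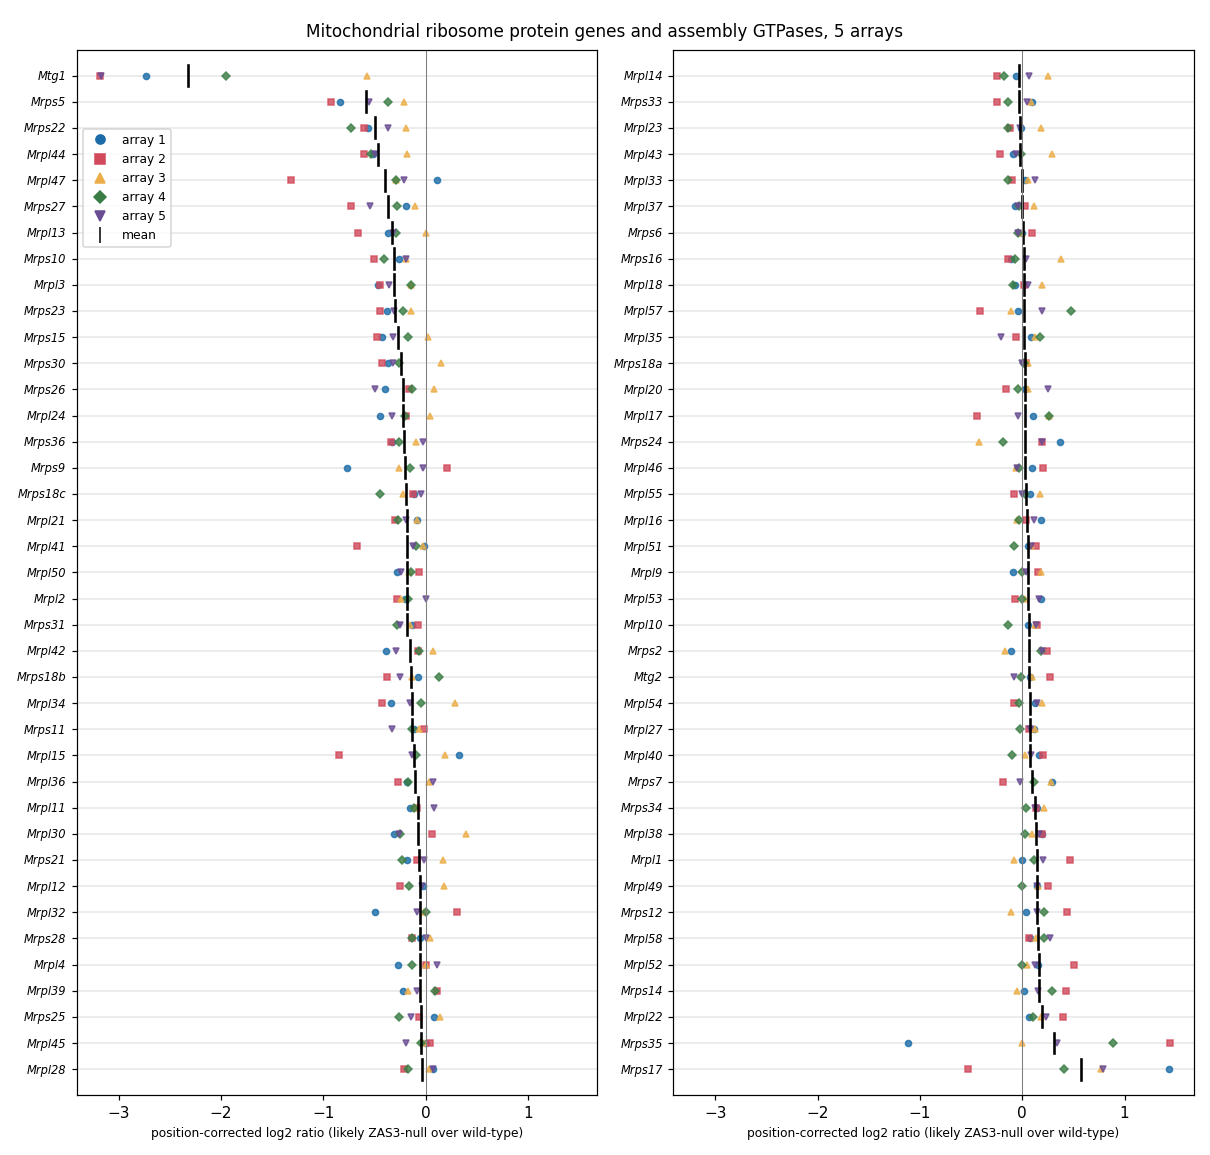
Position-corrected log2 ratios of all 78 genes, 1 symbol per array and a black bar for the mean, ordered from the lowest mean (top left) to the highest (bottom right). Most genes lie within 0.5 of 0 on every array; Mtg1 lies far to the left, from -3.18 to -1.95 apart from array 3 at -0.57, and Mrps35 and Mrps17 spread widely on both sides of 0.

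Of the assembly GTPases, Mtg1 had a strongly negative ratio and Mtg2 did not. Mtg1 had log2 ratios of -2.72, -3.24, -0.55, -1.95 and -3.18 on arrays 1 to 5. Every array was negative, and array 3 stood apart with the weakest value. The mean was -2.32 ± 1.12 (SD, n = 5), a 5.01-fold difference, and after correction it was -2.32 ± 1.10. Its SD was the 33rd highest of all 16504 named genes. Mtg2, an Obg-type GTPase that also binds the large subunit, had 0.07, 0.14, 0.08, 0.01 and -0.08. These values straddled 0, with a mean of 0.04 ± 0.08 as deposited and 0.07 ± 0.14 after correction.

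The spot of Mtg1 lay in column 48 and row 212 of the slide. The values of its 8 adjacent spots are given beside it. The 7 that carried named genes had mean log2 ratios between -0.22 and 0.17. The eighth carried no named gene, had a mean of -3.30, and was 1 of 256 spots without a gene that lay below -1.5 on every array. Those 256 spots had median ratios of -2.50, -3.48, -4.15, -3.74 and -2.48 on arrays 1 to 5. They were lowest on array 3, where Mtg1 was weakest. A spot with the value of Mtg1 on array 3 could not be among them. Part of this contrast therefore came with the limit of -1.5 on every array. Whether the low spot beside Mtg1 bears on its ratio was not tested.

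The named genes with the most similar profile were Tmem164, Nle1, Drosha, Mxra8 and Efna1, by Euclidean distance over the 5 log2 ratios as deposited. The distances of the first 4 were 0.775, 1.10, 1.43 and 1.49. Tmem164, a membrane protein gene, had -2.44, -3.24, -0.65, -1.36 and -2.77. Nle1, which acts in assembly of the cytosolic large ribosomal subunit, had its lowest value, -3.11, on array 5 and -0.18 on array 3. Each of the 5 genes had its value nearest to 0, or above 0, on array 3. The choice by distance from Mtg1, itself weakest on array 3, favours genes with this trait, so it is no separate result. The 5 genes lay in columns 71, 96, 64, 46 and 49, and each was measured by 1 probe. After correction Tmem164, Nle1, Drosha and Mxra8 were again the nearest 4, and Zfp771 took the place of Efna1.

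**Figure D3:**
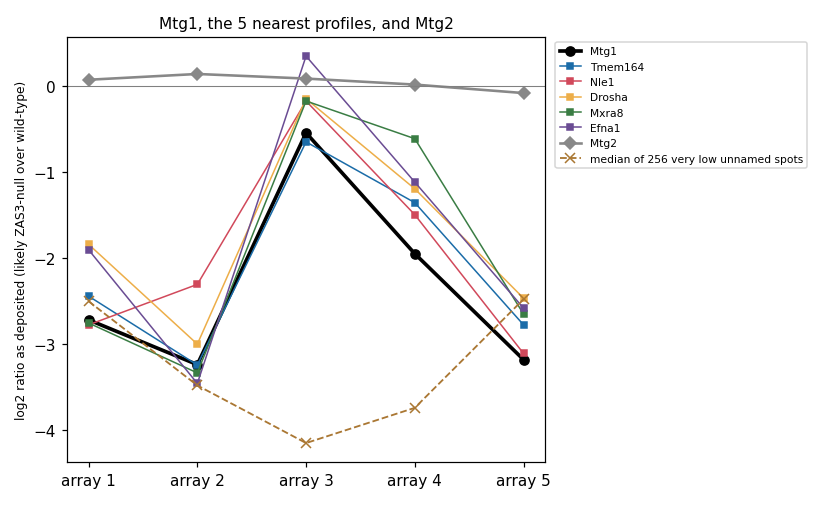
Log2 ratios as deposited on each of the 5 arrays for Mtg1 (black), the 5 named genes of nearest profile, Mtg2 (grey) and the median of 256 very low spots without a gene (dashed); lines join the values of 1 gene and imply no order of the arrays. Mtg1 and the 5 genes come closest to 0 on array 3, where the very low spots are lowest at -4.15, and Mtg2 stays between -0.08 and 0.14.

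Promoter sequences were examined as a feature that the choice of genes did not use. The RefSeq promoter table, 250 bases before and 50 from the start of transcription, held 70 of the 78 genes. Short cores of factors known to control nuclear genes for mitochondrial proteins were searched on both strands. The NRF-1 core GCATGCGC was in the promoters of 9 of the 70 (12.9%), against 4.57% of the array's named genes with a promoter and 2.71% of all promoters in the table. The ETS core CCGGAAG, bound by GABP, was in 26 (37.1%), against 14.8% and 8.86%. The YY1 core ATGGCGG was in 13 (18.6%), against 6.92% and 4.05%. Any of the 3 was in 38 (54.3%), against 23.2% and 14.1%. These shares describe letters in a window and not binding.

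The stretch from 90 bases before to 30 bases from the start is shown for both GTPases, for the subunit genes Mrps5, Mrps22 and Mrpl44, which were called after correction, and for Mrps17, which had the highest mean. Capitals mark the 3 cores.
Mtg1 promoter (GRCm38.p6, chr7:140137474-140137593, plus strand): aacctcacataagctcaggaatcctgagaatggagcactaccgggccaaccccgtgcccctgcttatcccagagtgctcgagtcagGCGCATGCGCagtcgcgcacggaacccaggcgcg
Mtg2 promoter (GRCm38.p6, chr2:180070503-180070622, plus strand): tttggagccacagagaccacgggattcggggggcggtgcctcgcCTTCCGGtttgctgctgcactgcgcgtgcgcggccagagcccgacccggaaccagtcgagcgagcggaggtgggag
Mrps5 promoter (GRCm38.p6, chr2:127587336-127587455, plus strand): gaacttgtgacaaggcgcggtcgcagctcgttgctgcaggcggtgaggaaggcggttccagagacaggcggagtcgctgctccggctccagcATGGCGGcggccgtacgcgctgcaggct
Mrps22 promoter (GRCm38.p6, chr9:98601650-98601769, minus strand): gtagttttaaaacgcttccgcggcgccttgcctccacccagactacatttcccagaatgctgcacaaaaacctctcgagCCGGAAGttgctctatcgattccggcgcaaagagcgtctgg
Mrpl44 promoter (GRCm38.p6, chr1:79775928-79776047, plus strand): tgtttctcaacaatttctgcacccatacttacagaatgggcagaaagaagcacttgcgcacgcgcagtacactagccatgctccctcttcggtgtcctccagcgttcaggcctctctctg
Mrps17 promoter (GRCm38.p6, chr5:129715407-129715526, plus strand): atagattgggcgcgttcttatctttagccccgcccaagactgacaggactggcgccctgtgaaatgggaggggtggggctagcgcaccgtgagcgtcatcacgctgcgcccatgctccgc
The NRF-1 core of Mtg1 overlaps its reverse complement, so that both strands match around the start. The windows of Mrpl44 and Mrps17 held none of these letters. The 38 genes with a core had a median position-corrected ratio of -0.01, and the 32 without had -0.05.

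Among the 26 genes of the small subunit, the lowest ratios belonged to Mrps5 and Mrps22. Mrps5, the homologue of bacterial S5, which bears on decoding accuracy, had -0.95, -1.12, -0.42, -0.67 and -0.70 on arrays 1 to 5. All arrays were negative, and the mean was -0.77 ± 0.27, a 1.71-fold difference. After correction its values were -0.84, -0.93, -0.21, -0.37 and -0.55, with a mean of -0.58 ± 0.30. Mrps22, a subunit found only in mitochondrial ribosomes and mutated in human mitochondrial disease, had -0.69, -0.76, -0.28, -0.94 and -0.54. It too was negative throughout, at -0.64 ± 0.25 as deposited and -0.49 ± 0.21 after correction. The spots of these genes lay in columns 11 and 7, where the array as a whole was low.

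Next came Mrps23, a mitochondria-specific subunit, with -0.47 ± 0.14, and Mrps10, the S10 homologue, with -0.43 ± 0.18. After correction they had -0.30 ± 0.12 and -0.31 ± 0.14, still negative on all 5 arrays. Mrps27, a pentatricopeptide repeat protein of the small subunit, had -0.21 ± 0.31 as deposited and -0.37 ± 0.26 after correction. It lay in column 79, on the high side of the slide, so the correction lowered it.

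On the positive side, Mrps17 and Mrps35 had the widest spread of the small subunit. Mrps17, the S17 homologue, had 1.49, -0.51, 0.88, 0.54 and 0.89 on arrays 1 to 5. It was high on every array but array 2, with a mean of 0.66 ± 0.73 as deposited and 0.57 ± 0.72 after correction. This profile was not particular to Mrps17. Rpl14, a cytosolic ribosomal protein gene, had 1.37, -0.40, 0.99, 0.67 and 0.98 as deposited. Grsf1, from the list of ribosome assembly and rRNA modification, had 1.22, -0.43, 0.86, 0.73 and 0.85. Both were picked for their likeness to Mrps17, and what the profile reflects was not tested. Mrps35, a mitochondria-specific subunit, had -1.05, 1.43, 0.11, 1.05 and 0.42. Arrays 1 and 2 lay on opposite sides of 0 by more than 1 log2 unit each, so the mean of 0.39 ± 0.96 is within the spread. Only 100 named genes had a higher SD than Mrps35 as deposited.

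The other named genes of the small subunit with high ratios were tighter. Mrps34, a mitochondria-specific subunit mutated in human mitochondrial disease, had 0.38, 0.32, 0.51, 0.34 and 0.39, with a mean of 0.39 ± 0.07. It lay in column 91 and had 0.13 ± 0.06 after correction, positive on all 5 arrays. Mrps12, the homologue of the decoding centre protein S12, had 0.42 ± 0.20 as deposited and 0.14 ± 0.20 after correction. Mrps14, the S14 homologue, had 0.06 ± 0.15 and 0.17 ± 0.20. The remaining 16 small subunit genes had corrected means between -0.27 and 0.09.

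The large subunit, to which 49 of the genes belong by structure, included 1 gene called after correction, Mrpl44, on the negative side. This is 2.04%, near the 2.30% of all named genes, and 0 were called positive, against 0.612%. The large subunit's median was -0.11 as deposited and -0.02 after correction, against -0.11 and -0.06 for the small subunit. Mrpl44, which carries a ribonuclease III-like fold and is mutated in human cardiomyopathy, had -0.19, -0.44, 0.21, -0.24 and -0.19, with a mean of -0.17 ± 0.24. Its spot lay in column 95, where most genes were positive. After correction its values were -0.51, -0.61, -0.19, -0.54 and -0.50, with a mean of -0.47 ± 0.16. Mrpl44 was called only after correction.

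Mrpl47, the homologue of L29 beside the exit of the peptide tunnel, was lowest on array 2. It had -0.04, -1.55, -0.56, -0.62 and -0.44, negative on every array, with a mean of -0.64 ± 0.56 and of -0.42 without array 2. As deposited it was called without array 2 and not with all 5 arrays. After correction the mean was -0.40 ± 0.54, with 0.11 on array 1 and -1.31 on array 2. Mrpl22, the L22 homologue that lines the tunnel, was positive on every array, at 0.32 ± 0.10 as deposited and 0.19 ± 0.13 after correction. Mrpl58, a peptidyl-tRNA hydrolase that releases stalled ribosomes and is also part of the large subunit, had 0.42 ± 0.15 and 0.15 ± 0.09, likewise positive on every array. Mrpl57 had 0.38 ± 0.39 as deposited and 0.02 ± 0.33 after correction. Mrpl52 had -0.04 ± 0.21 and 0.16 ± 0.20. The remaining 43 large subunit genes had corrected means between -0.33 and 0.14.

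Neighbours within the ribosome were compared in groups chosen after the values were seen. The stalk proteins that recruit translation factors, Mrpl10, Mrpl11 and Mrpl12, had corrected means of 0.06, -0.07 and -0.06. The 6 proteins around the tunnel exit ran both ways, from -0.40 for Mrpl47 and -0.22 for Mrpl24 through -0.04 for Mrpl45, -0.02 for Mrpl23 and 0.03 for Mrpl17 to 0.19 for Mrpl22. Mammals have 3 relatives of bacterial S18. Mrps18a, which sits in the large subunit, had 0.02 after correction, Mrps18b had -0.14 and Mrps18c had -0.19. None of these 3 places had all its proteins on 1 side by more than their SD.

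Homologues of bacterial ribosomal proteins and proteins added in mitochondria were also set side by side. The 28 mitochondria-specific genes had a median of -0.04 as deposited and -0.03 after correction. The 45 bacterial homologues had -0.12 and -0.04. After correction 2 of the 28 (7.14%) and 1 of the 45 (2.22%) were called negative, against 2.30% of all named genes, and 0 were called positive, against 0.612%. Mrps36 bears the family's symbol but is known as a component of the 2-oxoglutarate dehydrogenase complex. It had -0.38 ± 0.17 as deposited and -0.21 ± 0.14 after correction.

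Only Mrpl40 had a further probe. The probes of this large subunit gene lay in columns 87 and 95, and had means of 0.39 ± 0.15 and 0.22 ± 0.15. After correction they had 0.19 ± 0.20 and -0.04 ± 0.17. A probe annotated to both Mrps25 and Nr2c2 was left out of the 78 genes and had 0.45 ± 0.31 as deposited and 0.28 ± 0.30 after correction. The probe of Mrps25 alone had 0.26 ± 0.15 and -0.05 ± 0.16, so after correction their means lay on opposite sides of 0. Mrps25, Mrpl39 and Mrps33 were called positive as deposited and had corrected means of -0.05, -0.06 and -0.03.

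Other genes of mitochondrial translation are given from lists of known function. Their counts stand beside 12.0% of all named genes called positive and 12.9% negative as deposited, and 0.612% and 2.30% after correction. Subunits whose symbols fall outside the Mrp pattern were represented by 4 genes, with 0 called in either direction. Of 26 genes of ribosome assembly and rRNA modification, 1 was called positive and 6 negative as deposited, and 0 after correction. The 7 calls as deposited fell to 1, Rbfa, without array 4 or array 5. The lowest corrected mean among the called was that of Rbfa, a factor that binds the maturing small subunit, with -0.56 ± 0.18 as deposited and -0.38 ± 0.18 after correction. Gtpbp6, a GTPase of large subunit assembly and recycling, had -0.48 ± 0.25 and -0.32 ± 0.26. Both were negative on all 5 arrays. In the lists that follow the calls as deposited also moved when 1 array was left out, and each reached its lowest count without array 5. The counts ranged from 1 to 4 for translation factors, 2 to 4 for synthetases, 1 to 4 for mitochondrial DNA and 2 to 21 for cytosolic ribosomal proteins.

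Of 14 translation factors, 1 was called positive and 2 negative as deposited, and 1 negative after correction. This was Mtfmt, which formylates the initiator tRNA, with -0.75 ± 0.15 as deposited and -0.57 ± 0.19 after correction. Its corrected call held without array 1 or 2 but not without array 3, 4 or 5. As deposited Mtfmt stayed called whichever array was left out. Guf1, an elongation factor, had 0.38 ± 0.21 as deposited and 0.13 ± 0.30 after correction. Of 18 mitochondrial aminoacyl-tRNA synthetase genes, 2 were called positive and 3 negative as deposited, and 1 and 3 after correction. Lars2, the leucine enzyme, had 1.10, 0.95, 0.72, 0.50 and 0.30 as deposited, with a mean of 0.71 ± 0.33 and 0.87 ± 0.30 after correction. Its corrected call was lost without array 3 or 4. Iars2, the isoleucine enzyme, had -0.46 ± 0.13 and -0.39 ± 0.13, and its corrected call held only without array 2.

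Of 10 genes of mitochondrial DNA transcription and replication, 1 was called positive and 4 negative as deposited, and 0 after correction. Tfb2m, a transcription initiation factor, had -0.54 ± 0.18 and -0.39 ± 0.19, and Mgme1, an exonuclease of mitochondrial DNA, had -0.34 ± 0.19 and -0.30 ± 0.18. Cytosolic ribosomal protein symbols, 78 genes including 6 ribosomal S6 kinases that share the pattern, had 5 positive and 15 negative calls as deposited, and 0 and 1 after correction. Their corrected median was -0.09, against -0.04 for the 78 mitochondrial genes. Rps3a1 had -0.56 ± 0.08 as deposited and -0.39 ± 0.15 after correction, and Rps9 had -0.33 ± 0.12 and -0.32 ± 0.11. Both are parts of the small cytosolic subunit. The corrected call of Rps3a1 held only without array 2.

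**Figure D4:**
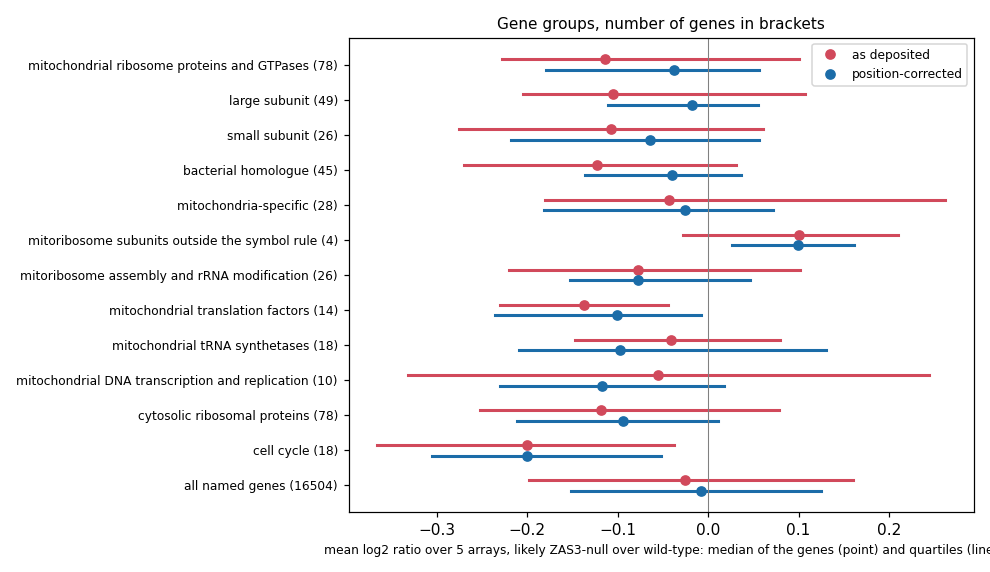
Median (point) and quartiles (line) of the mean log2 ratios of the genes in each group, as deposited in red and position-corrected in blue, with the number of genes in brackets. After correction the 78 mitochondrial ribosome genes centre on -0.04, the cytosolic ribosomal proteins on -0.09, the cell cycle genes on -0.20 and all named genes on -0.01, with overlapping quartiles.

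Cell cycle genes and markers of cell types bear on a bulk tissue, and their values are given beside those of the ribosome. Of 18 cell cycle genes, 1 was called positive and 7 negative as deposited, and 0 and 2 after correction, beside the same shares of all named genes. The 8 calls as deposited numbered 2 without array 4 and 1, Aurkb, without array 5. Aurkb and Bub1, kinases of chromosome segregation, had corrected means of -0.46 ± 0.15 and -0.40 ± 0.07, and their calls were lost without array 1, 3, 4 or 5. The corrected median of the cell cycle list on arrays 1 to 5 was -0.38, -0.03, -0.03, -0.22 and -0.27, and that of the 78 ribosome genes -0.06, -0.09, 0.03, -0.10 and -0.03. The list of CD4+CD8+ thymocyte markers had corrected medians of -0.37, 0.06, -0.05, -0.30 and -0.31. The thymocyte and cell cycle lists were lowest on arrays 1, 4 and 5, and the ribosome genes on arrays 2 and 4. Of 38 markers in 7 lists, 13 were called as deposited and 1 after correction. All named genes had 12.0% positive and 12.9% negative as deposited, and 0.612% and 2.30% after correction. The CD4+CD8+ thymocyte list of 9 genes had 2 positive and 4 negative calls as deposited, and the 8 genes of thymic epithelium 1 and 1. The 4 B cell markers had 3 and 0, with 0 called without array 3, 4 or 5. The 3 macrophage markers had 0 and 1, and the 6 adipocyte markers 1 and 0. The 3 erythroid and 5 endothelial markers had 0 and 0. The 1 corrected call was Foxn1 of thymic epithelium, on the positive side. Of the 8 genes in that list, 5 had corrected means above 0 and 3 below. In the other lists, corrected means above and below 0 numbered 2 and 7 for CD4+CD8+ thymocytes, 4 and 0 for B cells and 6 and 0 for adipocytes. They numbered 1 and 2 for macrophages, 2 and 1 for erythroid cells and 2 and 3 for endothelium. With 1 array left out the marker calls as deposited ranged from 3 to 16, and after correction Foxn1 stayed called without array 2 or 3 only. The part of cell composition in the ribosome genes' ratios was not tested.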

How the data were processed

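The values are log2 ratios of the 2 channels of each array, deposited by the authors after lowess normalization in GeneTraffic 2.6, per the series design text, which left dim spots out of the normalization. No value was missing among 22575 spots, and spot brightness was not used here. The values lie on a grid of rows and columns, and gene names follow the annotation with rows and columns exchanged, which gave 18218 probes 1 gene symbol, 16 several and 4341 spots none. Spots of a gene were averaged, which left 20861 features, 16504 of them named genes.

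Each feature was fitted against 0 with limma 3.58.1 in R 4.3.3 (intercept only, eBayes), with Benjamini-Hochberg adjustment over all features. The fit was repeated after subtracting the median of the surrounding 21 by 21 spots, with 256 very low spots left out of that median. The steps were run on simulated data with a straight trend across columns and independent noise, and the outcome is not given here. The simulation placed and read genes by the same spot order, so it could not check that order. The genes, lists and tests were chosen with earlier results of these data known. Named genes were Mtg1, Mtg2, the 6 highest and 6 lowest means in each form of the values, genes past the 1.5-fold rule, genes with discordant probes, up to 2 called genes per pathway list, and the 5 profiles nearest to Mtg1. The labels number a thymus of each genotype per array, and p-values measure the spread between these pairs. Alternatives were each array left out, centring, other windows, column and row medians, robust eBayes, deposited probe numbers, probe medians and named genes alone.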

Additional observations from a re-analysis of the deposited data

Results flagged for a closer look

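Among 36 checks of the named genes' 5 values, 2 had an array far from the rest, where chance alone flags about 1 in 20. Mrpl44 after position correction had -0.19 on array 3, against -0.50 to -0.61 on the others. Mrpl47 after position correction had -1.31 on array 2, against -0.29 to 0.11 on the others. Each of these genes was measured by 1 probe, so neither value could be checked on a further spot.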

How the results depend on the processing

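The number of ribosome genes called depended on single arrays. With 1 array left out it ranged from 4 to 28 as deposited (24 with all arrays) and from 0 to 5 after position correction (4 with all). Ribosome genes past the 1.5-fold rule, with 3 of the remaining 4 arrays required, ranged from 2 to 3 as deposited and from 1 to 2 after correction. All named genes past it ranged from 219 to 393 and from 45 to 144, against 143 and 40 with all arrays. Centring, robust eBayes, probe medians, named genes alone, other windows (11 by 11 or 41 by 41 spots) and column and row medians moved no count of calls by more than 1.5 times. The median of the 78 genes ranged from -0.13 to -0.09 as deposited and from -0.07 to -0.01 after correction with 1 array left out. Gene names by the deposited probe numbers gave 16 calls as deposited and 3 after correction, with other spots under these names. Over all named genes these numbers gave 3940 and 625 calls. The mean of Mtg1 ranged from -2.77 to -2.10 with 1 array left out and was -2.28 with column and row medians subtracted, a form added after seeing the data. Subtracting the local median moved the means of 6 of the other 17 named ribosome genes by more than their SD, Mrpl22, Mrpl44, Mrpl58, Mrps12, Mrps23 and Mrps34. It turned the sign of 3 called genes, Mrpl39, Mrps25 and Mrps33. With 1 array left out, the count of calls over all named genes ranged from 734 to 4763 as deposited and from 23 to 1152 after correction. Each array holds its pair, so the fit of the ratios against 0 is itself a paired comparison. No comparison between groups was possible, because there is 1 group. The 5 pairs in 1 dye orientation limit the precision, and dim spots could not be set aside.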
